A study of Mus musculus with 8 samples.

Results

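The genes described here are 41 genes of fatty acid oxidation and ketone body metabolism, taken by gene symbol from a list, out of 52143 genes measured in mouse distal colon. Each symbol on the list was found once in the data. A filter that asked 4 samples or more to reach 1 TPM kept 38 of the 41 genes and 13164 genes in all. TPM is a transcript's share of a library after correction for its length, so that levels of different genes can be set side by side.

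Mitochondrial fatty acid oxidation shortens an activated fatty acid by repeated rounds of dehydrogenation, hydration, a second dehydrogenation and thiolytic cleavage, each round releasing acetyl-CoA and passing electrons to the respiratory chain. Long chains enter mitochondria as carnitine esters, whereas short chains can cross without carnitine, and peroxisomes start on very long and branched chains. In the colon, surface epithelial cells are known to take up butyrate made by bacteria and to use it as a main fuel, and part of the acetyl-CoA can leave as ketone bodies.

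The samples were 4 libraries from control mice and 4 from mice expressing human SIGLEC12, a gene that mice lack. It encodes a receptor of the Siglec family, in a human form that the study describes as unable to bind sialic acids. Controls (Control) carried Villin1-Cre-ERT, a Cre recombinase made by the promoter of Villin1 in intestinal epithelium and active only after tamoxifen, and the other group (SiglecXII) carried SIGLEC12-Villin1-Cre-ERT, in which 1 floxed SIGLEC12 allele at ROSA26 under a CAG promoter is freed from an EGFP stop cassette by that Cre. All mice, controls included, were given tamoxifen (10 mg/ml) for 5 days from 8 weeks of age, and colons were taken 7 days after the last dose, on day 12. Only female mice are described for the study, the background strain is not given in the sources used here, and SIGLEC12, EGFP and Cre were not analysed here, so the labels were not checked against the transgene. The design text speaks of 3 mice per condition while the labels list 4 samples in each group; all 8 samples were used, and where libraries came from the same mouse p-values would measure only technical spread.

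Epithelial marker genes were abundant, with Krt8 at 4460 ± 779 TPM, Epcam at 1470 TPM and the surface colonocyte enzyme Car1 at 2530 ± 440 TPM in Control (SD, n = 4). The Control and SiglecXII libraries were not equally alike. On the first principal component of all 13164 genes, which held 40.3% of the variance, SiglecXII samples 3 and 4 scored 36.2 and 50.2 while the other 6 samples lay between -29.0 and -4.80, and Control sample 1 stood apart on the second component (28.7% of the variance) with a score of 47.7. The median gene of SiglecXII samples 3 and 4 lay -0.16 and -0.30 log2 units from the mean of the 8 samples, so that the median difference between the groups over all genes was -0.15, and differences of the members are read against that value. The 13 protein-coding genes of the mitochondrial genome, examined after values were seen, moved the other way: they held 6.35%, 5.26%, 6.95% and 6.90% of TPM in Control samples and 7.95%, 8.24%, 9.35% and 12% in SiglecXII samples. These shares did not overlap. As deposited, all 13 genes were above 0 (median 0.59), 12 at an unadjusted p of 0.05 or less and none at an adjusted one (limma), and 11 had groups that did not overlap. Those at that unadjusted p were 9 with quantile normalization, where 1 gene was below 0, 12 with median centring and 3 without SiglecXII samples 3 and 4 together. In that last setting all 13 were above 0 (median 0.35) and 11 had groups that did not overlap, where fewer samples make separation easier. Groups did not overlap in 5 genes with quantile normalization and 10 with median centring. The part of these 13 genes in the members' values was not tested. In bulk tissue fewer cells of a type and less RNA per cell cannot be told apart.

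Members were abundant genes in this tissue. Their median Control level was 85.4 TPM against 13.0 TPM over all genes tested, 36 of the 38 lay above the all-gene median, and 18 of the 38 (47.4%) were above 100 TPM, a level that 9.85% of all genes tested reached. Together the 41 genes held 0.315%, 0.389%, 0.361% and 0.368% of the TPM in Control samples 1 to 4 and 0.371%, 0.367%, 0.323% and 0.299% in SiglecXII samples 1 to 4. The groups overlapped, with means of 0.358% ± 0.0311 and 0.340% ± 0.0352 (SD, n = 4 each), and the lowest Control sample was number 1 and the lowest SiglecXII sample number 4.

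**Figure D1:**
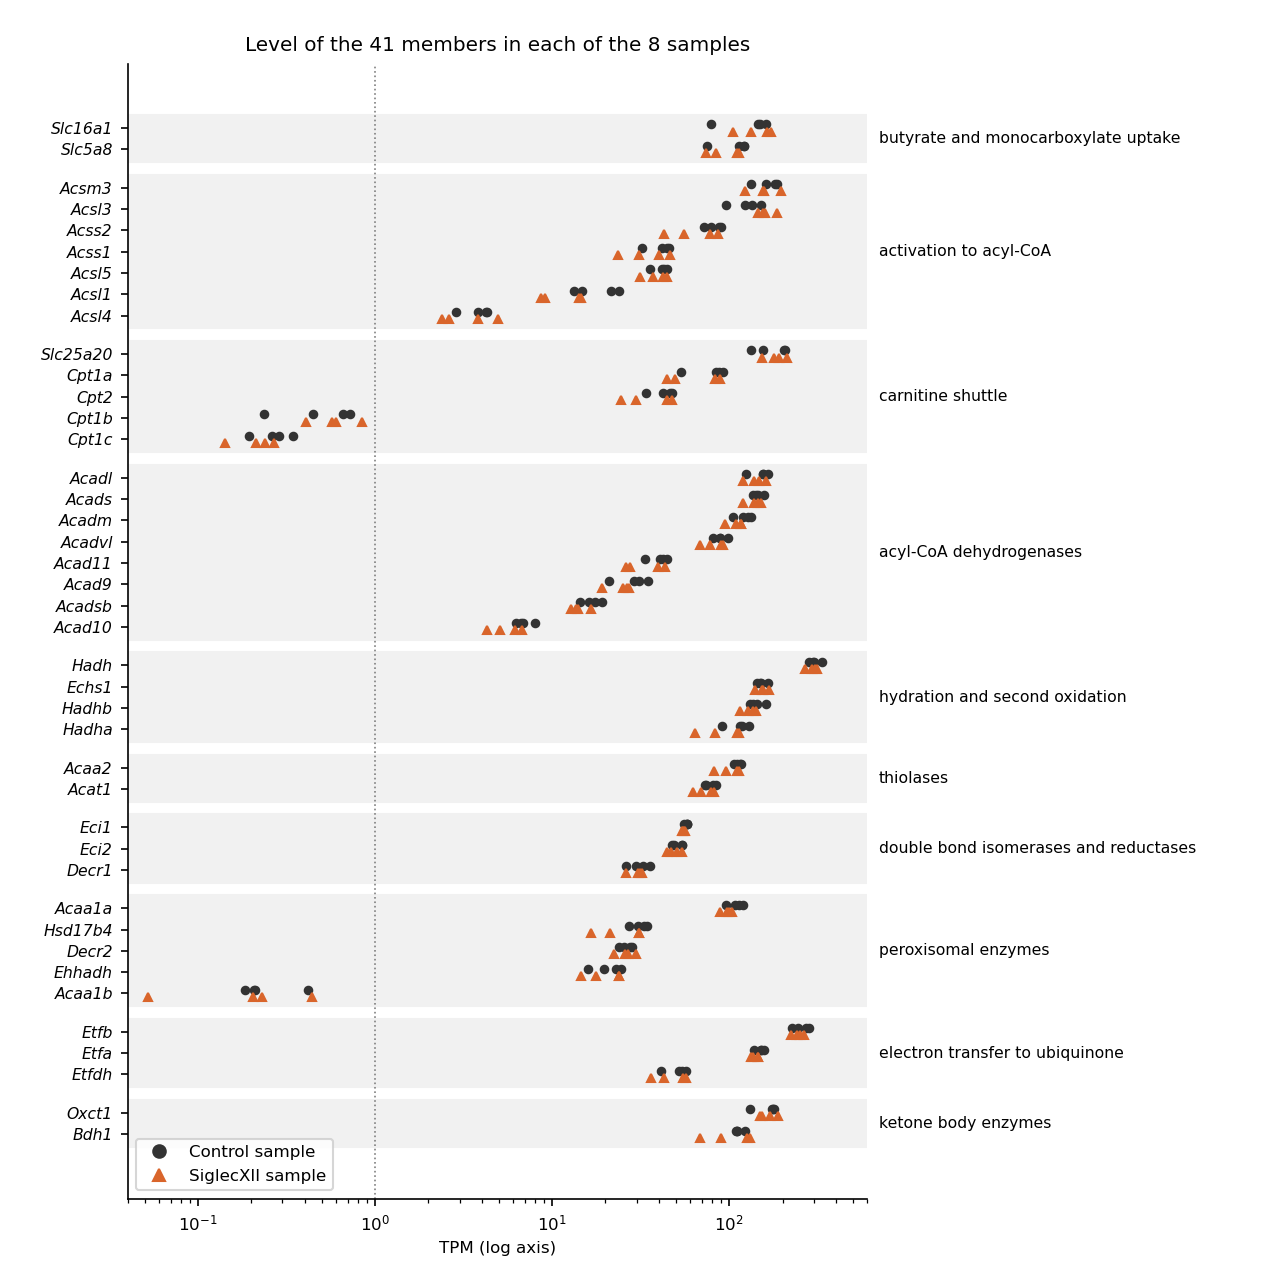
Level of each of the 41 members in every sample, in TPM on a log axis, grouped by step and ordered by Control level within a step; circles are the 4 Control samples, triangles the 4 SiglecXII samples, and the dotted line marks 1 TPM. Cpt1b, Cpt1c and Acaa1b lie below 1 TPM in all 8 samples and Hadh and Etfb lie highest.

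Entry of butyrate and other monocarboxylates is served by Slc16a1, the proton-coupled transporter MCT1, and Slc5a8, a sodium-coupled transporter of short-chain fatty acids. Slc16a1 was at 79.3, 150, 161 and 146 TPM in Control samples 1 to 4 and at 172, 163, 133 and 105 TPM in SiglecXII samples 1 to 4. Control sample 1 was far below the other controls and the groups overlapped over most of their range. The difference was 0.12 on the log2 scale (95% interval -0.43 to 0.66, limma), and its sign rested on that sample, without which it was -0.12. Slc5a8 was close to Slc16a1 in Control, at 108 ± 22.0 TPM against 134 ± 37.1 TPM (SD, n = 4), so the order of the pair was within the spread between samples. Within a library, however, Slc16a1 exceeded Slc5a8 in all 8 samples, by 1.06 to 1.33 times in Control and 1.41 to 1.58 times in SiglecXII samples, ratios that were examined after the values were seen and that carry no test.

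Among the transcripts for activation to acyl-CoA, those of a medium-chain and a long-chain synthetase were the most abundant in Control. Acsm3, which activates medium-chain acids, was at 132, 182, 187 and 161 TPM in Control samples and 197, 157, 155 and 123 TPM in SiglecXII samples. These ranges lay almost on top of each other. Of the long-chain synthetases Acsl3 was the most abundant in Control at 126 ± 22.9 TPM, followed by Acsl5 at 41.1 ± 3.79 TPM, Acsl1 at 18.4 ± 5.15 TPM and Acsl4 at 3.79 ± 0.650 TPM (SD, n = 4), and no neighbours in this order overlapped among the controls. The acetyl-CoA synthetases differed too, with the cytosolic Acss2 at 81.8 ± 8.14 TPM and the mitochondrial Acss1 at 41.3 ± 6.28 TPM.

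The carnitine shuttle consists of the outer-membrane transferase Cpt1, the carrier Slc25a20 and the inner transferase Cpt2. Slc25a20 was the most abundant, at 132, 207, 156 and 204 TPM in Control samples and 154, 191, 178 and 213 TPM in SiglecXII samples, with no order between the groups. Cpt1a, known as the liver form, supplied nearly all Cpt1 transcript: it was at 53.6, 84.5, 92.0 and 87.6 TPM in Control samples and 88.9, 83.2, 49.4 and 44.5 TPM in SiglecXII samples. Control sample 1 and SiglecXII samples 3 and 4 were the 3 low libraries and the others lay close together, and the difference between groups was -0.29 (95% interval -0.88 to 0.30, limma). The muscle form Cpt1b lay between 0.236 and 0.840 TPM and the brain form Cpt1c between 0.143 and 0.345 TPM over the 8 samples, and neither passed the filter. Of the 31-base windows of Cpt1b, 79.7% also occur in Gm44502, an annotated gene that overlaps it, so their reads cannot be assigned with certainty, although Gm44502 itself was at most 0.177 TPM.

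Sequences of Cpt1a and Cpt1c are printed because paralogs of such unequal level share a promoter motif. Both promoter windows (250 bases before to 50 after the start site, from RefSeq on GRCm38.p6) hold the nuclear receptor hexamer AGGTCA, in capitals in the 60 bases below; in Cpt1a it lies on the opposite strand. Cpt1b had no window among those used.
Cpt1a, chr19:3323180-3323239, plus strand: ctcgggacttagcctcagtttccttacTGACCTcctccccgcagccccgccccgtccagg
Cpt1c, chr7:44974965-44975024, minus strand: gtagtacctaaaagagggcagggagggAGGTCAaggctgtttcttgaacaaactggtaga
The first gene was at 79.4 ± 17.5 TPM and the second at 0.272 ± 0.0631 TPM in Control (SD, n = 4).

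The acyl-CoA dehydrogenases, which open each round for chains of different length, covered a wide range. The long-chain Acadl was highest, at 125, 166, 156 and 156 TPM in Control samples and 148, 161, 138 and 119 TPM in SiglecXII samples, with the SiglecXII range inside the Control range but for sample 4. The short-chain Acads (145 ± 8.93 TPM), the medium-chain Acadm (121 ± 11.8 TPM) and the very-long-chain Acadvl (89.1 ± 6.91 TPM) followed in Control, and Acadl and Acads did not differ beyond their spread. Acad11 (40.4 ± 4.88 TPM), Acad9 (28.8 ± 5.74 TPM), Acadsb (16.8 ± 2.05 TPM) and Acad10 (6.95 ± 0.725 TPM) were lower. Acad10 shares 22.9% of its 31-base windows with Acad12, which was at 3.76 to 5.96 TPM, so its level is uncertain. All 8 dehydrogenases had a difference below 0, from -0.29 to -0.08, but 4 of the 8 lay above the all-gene median of -0.15, and after each sample was centred on its median 4 were above 0 and 4 below.

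Hydration and the second oxidation are catalysed by Echs1 and Hadh for short chains and by the trifunctional protein, made of Hadha and Hadhb, for long chains. Hadh was the most abundant of all 41 genes, at 284, 333, 303 and 296 TPM in Control samples and 313, 307, 293 and 268 TPM in SiglecXII samples. The groups overlapped, and the largest sample exceeded the smallest by only 1.25 times. Echs1 was at 153 ± 9.39 TPM, Hadhb at 143 ± 13.4 TPM and Hadha at 114 ± 16.1 TPM in Control (SD, n = 4).

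Hadha and Hadhb encode the partners of a single enzyme complex and lie head to head on chromosome 5 of GRCm38, Hadha on the minus strand with its annotated end at 30155162 and Hadhb on the plus strand from 30155248, with 85 bases between them. Those bases are printed on the plus strand, from chr5:30155163-30155247, because the genes lie head to head on either side of them; capitals mark the GC box GGGCGG.
Hadha-Hadhb: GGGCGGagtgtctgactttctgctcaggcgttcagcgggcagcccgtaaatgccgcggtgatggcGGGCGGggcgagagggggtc
Within a library the ratio of Hadha to Hadhb TPM was 0.699, 0.805, 0.874 and 0.806 in Control samples 1 to 4 and 0.801, 0.802, 0.652 and 0.559 in SiglecXII samples 1 to 4. Control sample 1 and SiglecXII samples 3 and 4 again had the lowest values, the groups overlapped, and no test was made on these ratios. Hadhb shares 19.5% of its windows with the processed pseudogene Gm13910 (at most 0.874 TPM in any sample).

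The cleavage step belongs to Acaa2, the thiolase of medium and long chains, and Acat1, which also joins or splits acetoacetyl-CoA in ketone body metabolism. Acaa2 was at 110, 115, 107 and 117 TPM in Control samples and 114, 111, 96.4 and 82.1 TPM in SiglecXII samples, where samples 3 and 4 lay under every control and samples 1 and 2 among them. Acat1 was at 78.3 ± 5.72 TPM in Control and 73.1 ± 8.97 TPM in SiglecXII samples (SD, n = 4 each). Among the enzymes that prepare unsaturated chains, Eci1 was the steadiest gene of the list, at 57.4, 58, 55.9 and 57.6 TPM in Control samples and 56.6, 55.9, 54.5 and 53.9 TPM in SiglecXII samples. Its largest sample exceeded its smallest by 1.08 times. Eci2 was at 51.1 ± 3.72 TPM and Decr1 at 31.1 ± 4.09 TPM in Control.

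In the peroxisomal enzymes a pair of near-identical thiolases differed most. Acaa1a was at 108, 119, 96.0 and 113 TPM in Control samples and 99.2, 104, 88.4 and 96.6 TPM in SiglecXII samples, whereas Acaa1b was at 0.184, 0.417, 0.211 and 0.206 TPM and at 0.229, 0.442, 0.0522 and 0.204 TPM. In every sample Acaa1a was the higher by far. The genes lie 183 kilobases apart on chromosome 9 on opposite strands, and their coding sequences (1272 bases without the stop codon, GENCODE M21) are 96.5% identical, with 44 differing bases and a longest shared run of 327 bases. The 60 coding bases below, from position 460 to 519 counted from the first base of the start codon, are the single-exon stretch with the most differences, 11, which are in capitals.
Acaa1a, chr9:119346483-119346542, plus strand, GRCm38: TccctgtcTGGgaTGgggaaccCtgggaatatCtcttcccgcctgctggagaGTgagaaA
Acaa1b, chr9:119151842-119151901, minus strand, GRCm38: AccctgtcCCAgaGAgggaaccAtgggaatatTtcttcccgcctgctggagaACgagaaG
Of the 31-base windows of Acaa1b 40.0% also occur in Acaa1a, and 16.9% of those of Acaa1a occur in Acaa1b, so reads from such windows could be divided between them. Of the other peroxisomal members Hsd17b4 was at 31.3 ± 3.26 TPM, Decr2 at 26.2 ± 1.95 TPM and Ehhadh at 20.7 ± 3.83 TPM in Control (SD, n = 4).

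Electrons from the dehydrogenases pass through the flavoprotein of Etfa and Etfb to Etfdh and ubiquinone. Etfb was at 284, 271, 226 and 244 TPM in Control samples and 223, 263, 243 and 250 TPM in SiglecXII samples, so the groups overlapped. It exceeded its partner Etfa (150 ± 8.46 TPM) in all 8 samples, by 1.53 to 1.88 times. Gm45233, which overlaps Etfb and holds 47.3% of its windows, lay between 0.449 and 2.95 TPM. Etfdh was at 51.1 ± 6.77 TPM in Control.

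The ketone body members are Bdh1, which interconverts acetoacetate and 3-hydroxybutyrate, and Oxct1, which activates acetoacetate for use as fuel. Oxct1 was at 131, 176, 174 and 180 TPM in Control samples and 188, 171, 154 and 150 TPM in SiglecXII samples. Control sample 1 was the lowest of all and the groups overlapped. Bdh1 was at 114 ± 6.39 TPM in Control and 104 ± 29.6 TPM in SiglecXII samples (SD, n = 4 each).

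Summed over their members in Control, hydration and second oxidation held the most TPM (713 ± 57.8), ahead of the dehydrogenases (599 ± 56.1), activation (478 ± 55.6), electron transfer (457 ± 30.5), the carnitine shuttle (297 ± 55.5), ketone body enzymes (279 ± 25.9), uptake (242 ± 59), thiolases (191 ± 5.74), peroxisomal enzymes (187 ± 12.3) and the isomerases and reductases (139 ± 6.96; SD, n = 4 for each). Activation did not differ from electron transfer beyond the spread, nor did the shuttle, ketone body enzymes and uptake from each other. Thiolases likewise did not differ from peroxisomal enzymes or from uptake, which lay below them in Control sample 1 (154 against 183 TPM). The order depended on the number of genes in a step: by the median gene, electron transfer (150 TPM), hydration and second oxidation (148 TPM) and ketone body enzymes (139 TPM) came first.

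SiglecXII was then compared with Control, the contrast for which the samples were made. None of the members reached an adjusted p of 0.05 with limma, a limit passed by 5 of all 13164 genes (0.038%), and the smallest adjusted p among members was 0.515. At an unadjusted p of 0.05 or less, 2 of the 38 members (5.26%) passed, 1 higher and 1 lower, beside 8.87% of all genes tested (1.19% higher and 7.67% lower in SiglecXII). None passed both that limit and a fold change of 2, which 0.919% of all genes did, and none had groups that did not overlap, which 5.11% of all genes had. With 38 members these shares are coarse, and their difference from all genes was not tested.

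The median difference of the 38 members was -0.12, against -0.15 over all genes, with 33 members below 0 (86.8%, against 78.1% of all genes) and 23 members above the all-gene median and 15 below it. That last split turned with quantile normalization, where 25 members lay below the all-gene median (members -0.01, all genes 0.02). It also turned with no filter, where 33 of 41 did (-0.10 and -0.04), whereas with median centring 15 lay below, as deposited. Differences ran from -0.61 in Acsl1 to 0.36 in Acsl3, and the median half-width of the 95% interval was 0.31, so changes smaller than that could not be told from none for a typical member. Directions followed the scaling. With each sample centred on its median, 11 members were below 0 and 27 above, and with quantile normalization 22 and 16; without SiglecXII samples 3 and 4 together the split was 14 and 24, the all-gene median was 0.00 and that of the members 0.03. Over all genes, those at an unadjusted p of 0.05 or less were 157 higher and 1010 lower as deposited, 1137 and 285 after centring, and 704 and 408 after quantile normalization.

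**Figure D2:**
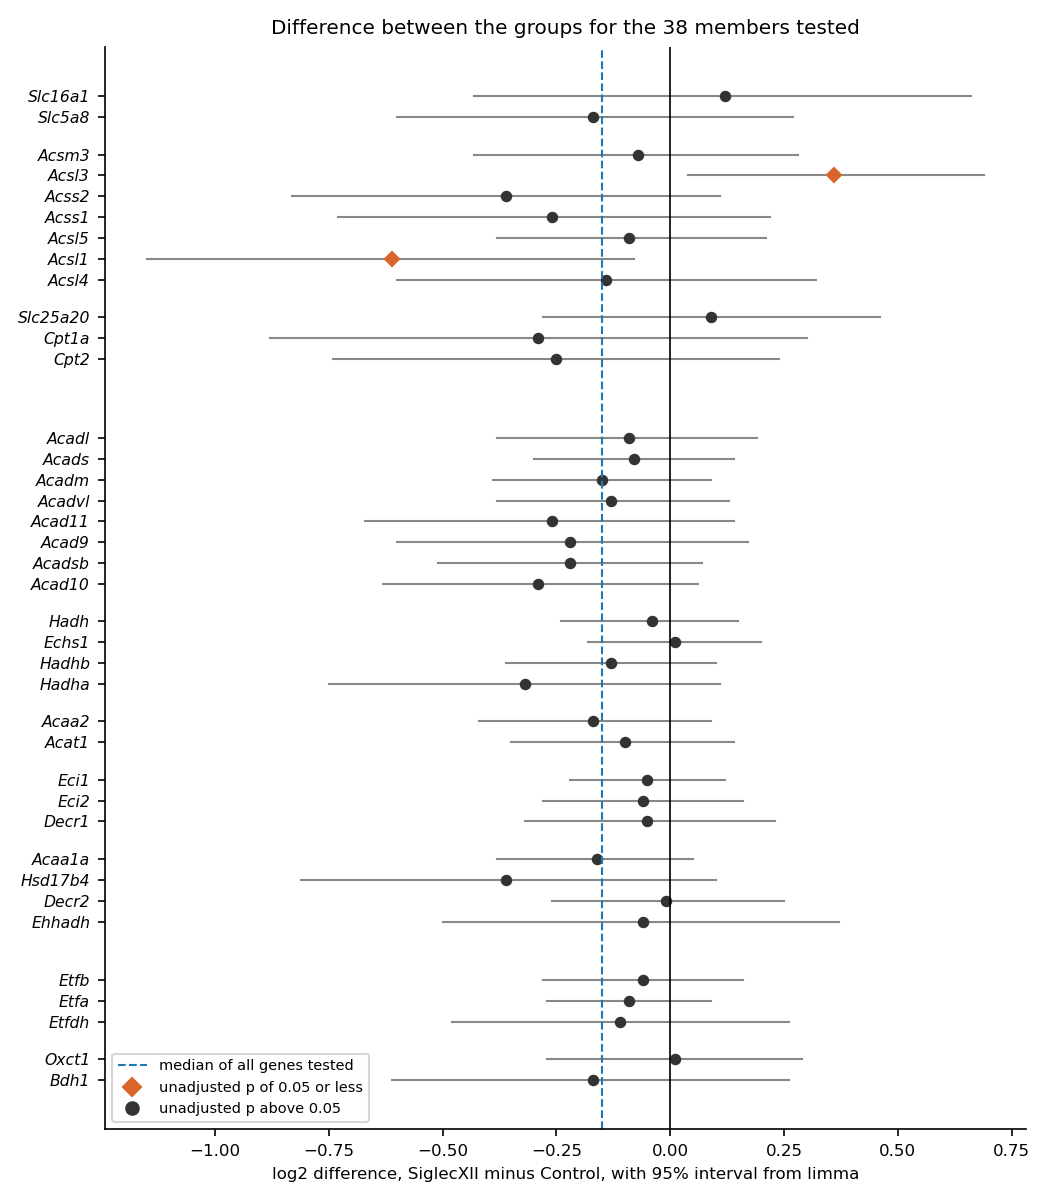
Log2 difference between SiglecXII and Control for the 38 members tested, in the same order as the plot of levels; lines are 95% intervals from limma over all genes, the solid vertical line is 0 and the dashed line the all-gene median of -0.15. Only the intervals of Acsl3 and Acsl1, drawn as diamonds, leave out 0.

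The members that passed at an unadjusted p were both long-chain acyl-CoA synthetases, and they lay on opposite sides. Acsl1, an enzyme of the outer mitochondrial membrane and the endoplasmic reticulum, was at 23.9, 14.7, 13.3 and 21.6 TPM in Control samples and 14.5, 14.1, 9.07 and 8.68 TPM in SiglecXII samples. SiglecXII samples 3 and 4 lay under every control and samples 1 and 2 among the lower pair of controls, so the groups overlapped. The difference was -0.61 (standard error 0.237, 95% interval -1.15 to -0.08, or -0.46 relative to all genes; limma, unadjusted p = 0.0289, adjusted p = 0.515). It was -0.30 without SiglecXII samples 3 and 4 together (unadjusted p = 0.263 from limma), and leaving out any of Control samples 1 and 4 and SiglecXII samples 3 and 4 singly also took it past the limit, to -0.48, -0.53, -0.52 and -0.50. Acsl1 also lost the limit with quantile normalization (-0.41), median centring (-0.40) and array weights (-0.29).

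Acsl3, found on lipid droplets and the endoplasmic reticulum, was at 96.2, 134, 123 and 151 TPM in Control samples and 155, 159, 146 and 185 TPM in SiglecXII samples. SiglecXII sample 3 lay under Control sample 4, and every other SiglecXII sample was above every control. The difference was 0.36 (standard error 0.142, 95% interval 0.04 to 0.69, or 0.52 relative to all genes; limma, unadjusted p = 0.0306, adjusted p = 0.515). It was above 0 in each of 18 alternatives run, from 0.24 without Control sample 1 to 0.58 after median centring, and passed the unadjusted limit in 12 of them; without SiglecXII samples 3 and 4 together it was 0.33 (unadjusted p = 0.0999 from limma), and it lost the limit without Control sample 1 (0.24), Control sample 3 (0.36), SiglecXII sample 2 (0.37) or SiglecXII sample 4 (0.30), and without moderation of the variance (0.36, unadjusted p = 0.0563 from limma). Acsl1 lay below 0 in the same 18 alternatives, from -0.75 to -0.29, and passed in 9; without moderation it lost the limit too (unadjusted p = 0.0616 from limma), and Eci1 was the only member to pass (-0.05, unadjusted p = 0.041 from limma). This fit of single members was added after the values were seen. Of Acsl3's windows 4.22% occur in Utp14b, a gene within it at 4.91 to 9.85 TPM.

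Within a library, Acsl3 TPM was 4.03, 9.11, 9.25 and 6.99 times that of Acsl1 in Control samples and 10.6, 11.2, 16.1 and 21.3 times in SiglecXII samples. Every SiglecXII sample was above every control in this ratio, with means of 14.8 ± 4.97 and 7.34 ± 2.44 (SD, n = 4 each). A ratio within a library is free of the scaling between libraries and shows only that the genes did not move in step. The pair was chosen after its values were seen, and no test is attached.

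**Figure D3:**
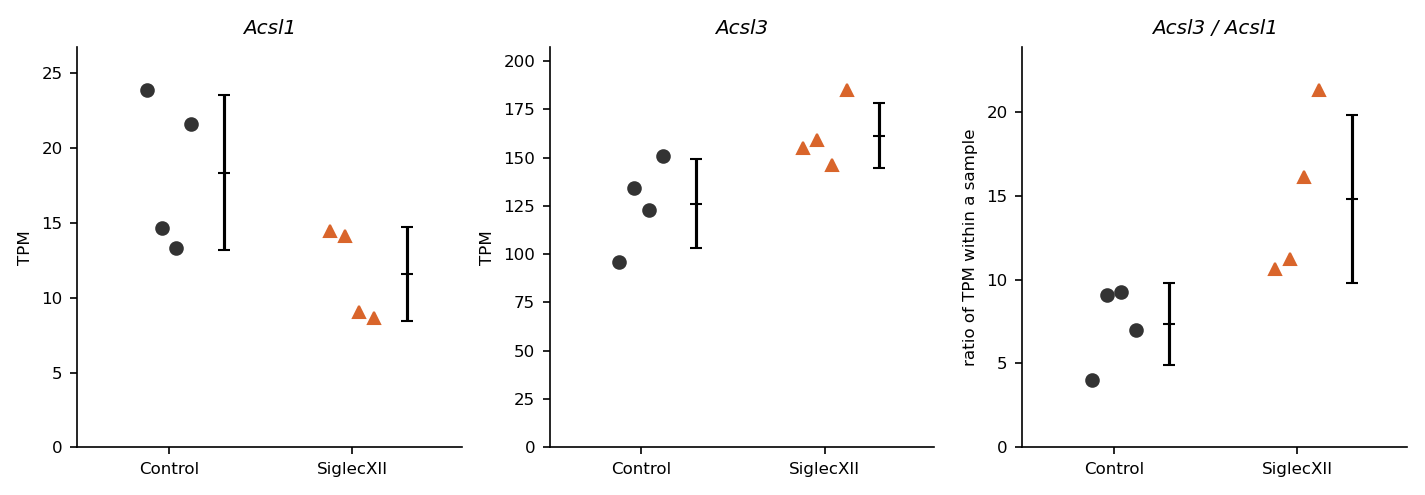
Acsl1 and Acsl3 in TPM and the ratio of Acsl3 to Acsl1 within each sample; points are the 4 samples of a group and bars the mean ± SD, on axes that start at 0. The groups overlap for each gene, whereas the ratio lies at or below 9.25 in Control and at or above 10.6 in SiglecXII samples.

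The promoter sequences of this pair are shown for comparison. They are the 130 bases before the RefSeq start site on GRCm38.p6, both on the plus strand, and capitals mark the GC box GGGCGG on either strand.
Acsl1, chr8:46470907-46471036: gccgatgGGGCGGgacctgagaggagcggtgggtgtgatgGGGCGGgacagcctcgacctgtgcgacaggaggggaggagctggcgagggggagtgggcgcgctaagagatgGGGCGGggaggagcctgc
Acsl3, chr1:78657695-78657824: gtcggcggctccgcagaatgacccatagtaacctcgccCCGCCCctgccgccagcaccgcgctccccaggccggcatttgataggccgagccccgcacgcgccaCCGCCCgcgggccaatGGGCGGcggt
Each of these stretches holds 3 GC boxes, and the full windows of 300 bases hold more. Acsl1 has a second RefSeq start site, whose window is not printed.

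Promoter windows were found for 35 of the 41 members, in 37 windows of 300 bases. The GC box GGGCGG was in 27 of the 35 members on either strand, against 67.7% of the 9662 tested genes with a window and 35.7% of all 32851 windows. TATAAA was in none of the 35, against 9.63% of tested genes and 13.6% of all windows, and the hexamer AGGTCA was in 5, Acadm, Cpt1c, Echs1, Acadvl and Cpt1a, against 15.3% of tested genes and 16.3% of all windows. Longer elements of regulators of this pathway were also searched on both strands: TCAAGGTCA, read by estrogen-related receptors, was in no member window and in 0.423% of all windows, and CAAAGTCCA, read by HNF4A, in none and in 0.475%. The first of these contains the hexamer. These counts describe the letters in the windows and bear on no factor's binding.

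The members' values differed by library. SiglecXII sample 4 was the lowest of the 8 samples in 31 of 38 members, and Control sample 2 the highest in 16 and SiglecXII sample 1 in 11. Set against the mean of all 8 libraries, the median member deviated (log2) by -0.12, 0.20, 0.10 and 0.10 in the controls, and in the SiglecXII samples by 0.12, 0.09, -0.10 and -0.32. All genes tested deviated alike, by -0.04, 0.15, 0.08 and 0.10 and by 0.10, 0.06, -0.16 and -0.30. Between the largest and the smallest sample, 18 of the 38 members differed by less than 1.5 times, and 7 (Slc16a1, Acss2, Acsl1, Acsl4, Cpt1a, Hadha and Hsd17b4) by 2 times or more.

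These deviations moved with transcript length, taken as the longest annotated transcript of a gene in GENCODE M21. Genes tested were divided into 3 equal classes by length at 2220 and 3954 bases, and 8, 19 and 11 members fell in the short, middle and long class. In SiglecXII sample 4 the median deviation was -0.27, -0.37 and -0.42 in the short, middle and long members, and -0.11, -0.31 and -0.47 in all genes of those classes; in SiglecXII sample 3 it was -0.08, -0.09 and -0.25 in members and -0.03, -0.16 and -0.30 in all genes. In Control sample 2 the order was the opposite, with 0.14, 0.21 and 0.25 in members and 0.09, 0.15 and 0.22 in all genes. The direction did not divide the groups. All genes of Control sample 1 fell with length (0.01, -0.04 and -0.10). Those of SiglecXII samples 1 (0.01, 0.10 and 0.19) and 2 (0.01, 0.06 and 0.11) rose, as did those of Control samples 3 and 4. The median difference between the groups was -0.09, -0.10 and -0.17 in the 3 classes of members and -0.07, -0.15 and -0.23 in those of all genes. Across genes, length and difference had a Spearman correlation of -0.26 over 38 members and -0.30 over 13003 genes; genes share their libraries and are not independent replicates, and the part of length in the differences was not tested. The division by length was chosen after the values were seen.

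**Figure D4:**
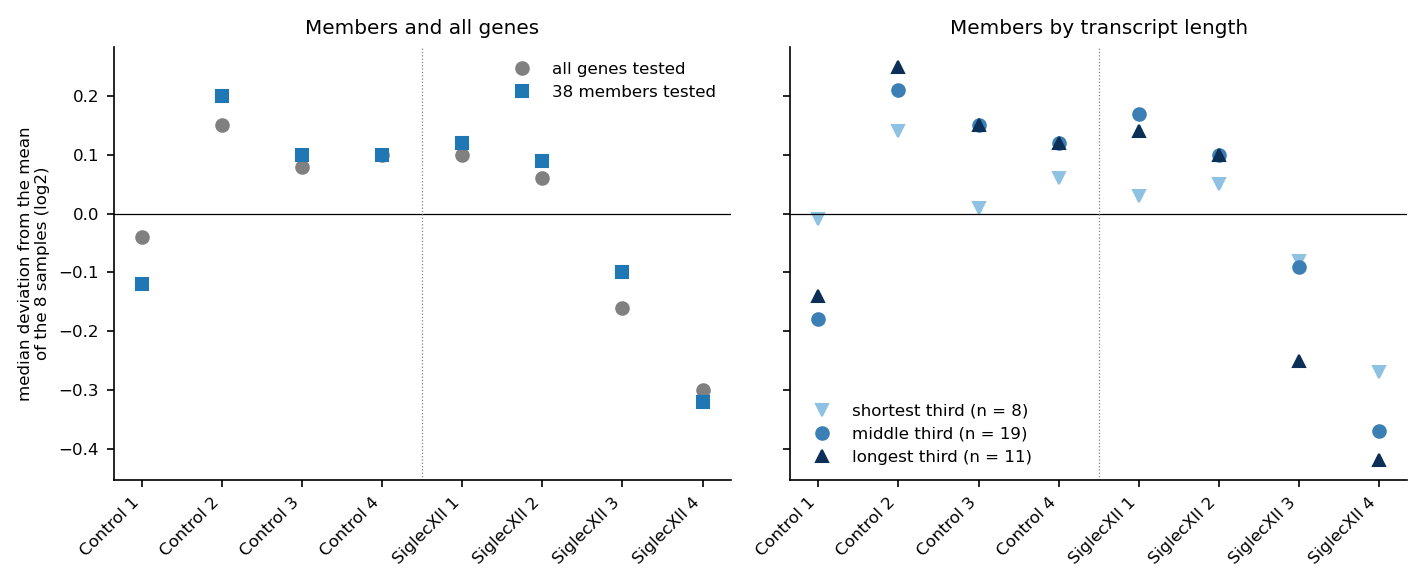
Median deviation of each sample from the mean of the 8 samples, in log2 units, for all genes tested and the 38 members (left) and for the members in 3 classes of transcript length (right); the dotted line parts Control from SiglecXII samples. Members follow all genes, SiglecXII sample 4 is lowest for each class, and the long class spreads most, from -0.42 to 0.25.

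Other genes of the pathway, from lists outside the members, gave few calls. With limma none of them reached an adjusted p of 0.05. Of 12 further peroxisomal genes tested Crot, a carnitine acyltransferase, passed with a difference of -0.30 (unadjusted p = 0.0394 from limma), and the most abundant, Scp2, was at 246 ± 8.08 TPM in Control. Of 9 genes of fatty acid entry and binding Slc27a2, a very-long-chain acyl-CoA synthetase and transporter, passed with a difference of -0.47 (unadjusted p = 0.0324 from limma), and Dbi, which binds acyl-CoA, was the most abundant at 601 ± 93.7 TPM. Of 2 receptors of short-chain fatty acids tested Hcar2, a receptor for 3-hydroxybutyrate and butyrate, passed with a difference of -0.78 (unadjusted p = 0.0275 from limma) at 4.75 ± 2.37 TPM in Control. None of these 3 lists had a gene called lower after quantile normalization, after median centring, without SiglecXII samples 3 and 4 together or without Control sample 1. Genes called higher were 1 peroxisomal gene and 1 receptor after quantile normalization, and 2 and 1 after centring.

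As deposited none passed among 5 genes of malonyl-CoA control, 2 further acyl-CoA synthetases, 9 regulators, 17 genes of the TCA cycle and 8 of pyruvate dehydrogenase and its kinases, whose median differences were -0.20, -0.33, -0.12, -0.09 and -0.13. After median centring 5 TCA cycle genes, 2 of pyruvate dehydrogenase and 1 of malonyl-CoA control were called, all higher in SiglecXII. Of all genes tested, 10.8% were called in that setting. After quantile normalization 1 of pyruvate dehydrogenase was called higher, and without Control sample 1 the only call was 1 gene of malonyl-CoA control, lower. Fabp1, which binds fatty acids, was listed at 0 in 6 of the 8 samples. Mlycd, which removes malonyl-CoA, the inhibitor of Cpt1, was at 22.6, 25.1, 25.3 and 26.1 TPM in Control samples and 26.2, 26.4, 27.6 and 29.2 TPM in SiglecXII samples. Its groups did not overlap, the only such gene in the pathway lists, with a difference of 0.14 (limma, unadjusted p = 0.172, adjusted p = 0.538). Such separation was found in 5.11% of all genes tested. For Mlycd it rested on 26.1 TPM in Control sample 4 against 26.2 TPM in SiglecXII sample 1. Of the regulators, Hnf4a (315 ± 51.1 TPM), Esrra (128 TPM) and Ppard (109 TPM) were abundant in Control, whereas Ppara was at 3.29 TPM and Ppargc1a at 11.3 TPM.

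Markers of cell types stood as follows beside these values. The 9 surface colonocyte markers tested had a median difference of 0.02 with no call, and their summed TPM was 6090, 7800, 6840 and 7120 in Control samples and 6420, 7750, 6380 and 7330 in SiglecXII samples. The 7 epithelial markers had a median of -0.04 and the 7 goblet cell markers, led by Zg16, of 0.00, likewise with no call. After median centring 1 gene of each of these 3 lists was called higher, after quantile normalization 1 goblet cell gene, and without Control sample 1 the goblet list had 1 higher and 1 lower. All 8 smooth muscle markers were below 0, as deposited and under both scalings, with 4 at an unadjusted p of 0.05 or less (Des, Cnn1 and Myh11 with the smallest p), and their summed TPM, with Tagln the most abundant, was 916, 689, 1090 and 881 in Control samples and 704, 619, 701 and 330 in SiglecXII samples. All 5 skeletal muscle markers tested were above 0 and at an unadjusted p of 0.05 or less (Tnnt3, Mylpf and Tnnc2 with the smallest p), with a summed TPM, led by Acta1, of 23.9, 63.4, 62.5 and 24.8 and of 95.9, 98.7, 158 and 52.6. Without Control sample 1 their calls fell to 3 and their median from 1.25 to 0.92. The muscle form Cpt1b was below 1 TPM in every sample.

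The summed TPM of adipocyte markers, led by Fabp4, was 33 ± 24.8 in Control and 28.1 ± 9.73 in SiglecXII samples, with Plin1 listed at 0 in Control sample 3. That of immune markers, led by Lyz2, was 25.4 ± 17.0 and 17.9 ± 7.47, with Cd79a listed at 0 in SiglecXII sample 3, and that of proliferation markers, led by Pcna, was 170 ± 35.4 and 125 ± 31.6 (SD, n = 4 each). None of the genes of these 3 lists was called at an unadjusted p. The immune list holds no immunoglobulin gene, and those named here were picked after values were seen. Igha, Igkc and Iglv1 differed by -2.19, -2.25 and -1.09 (unadjusted p = 0.0173, 0.0271 and 0.0343 from limma, adjusted p = 0.515 each). Ighm, at -0.60, did not pass. All 5 proliferation markers were below 0 (median -0.55), and the groups of Pcna did not overlap (difference -0.28). The proliferation median was -0.32 after quantile normalization and -0.33 after median centring, each with 1 marker above 0, and -0.12 with 2 above 0 without SiglecXII samples 3 and 4 together; without Control sample 1 it was -0.63, with 3 called lower. All 3 immune markers tested were below 0 (median -0.47), but without Control sample 1 their median was -0.27 with 1 above 0, and after quantile normalization and median centring 1 was above 0 as well (-0.30 and -0.26); without SiglecXII samples 3 and 4 together all 3 were below 0 (-0.73). The 5 adipocyte markers tested had a median of 0.05, which became -0.08 without Control sample 1 and 0.23 and 0.26 under the scalings. The part of cell composition in the members' values was not tested.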

How the data were processed

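RNA from distal colon of 4 Control and 4 SiglecXII samples was used. The authors deposited expression as log2(TPM + 1), and these values were not adjusted between samples. The submitters' processing notes name kallisto 0.45.0 and GRCm38, whereas the methods of the study name another kallisto version and a human reference; the gene identifiers are mouse, and 98.3% are in GENCODE M21. The labels name a stranded total RNA kit and the methods a stranded mRNA kit with 3 technical libraries per sample; how these were combined, and whether the counting used strand, is not given in the sources used here. Exons of 16 members overlap exons of another gene on the opposite strand, so such reads may not be told apart. The labels state a range of depth, but TPM keeps no read number, so the depth of each library is unknown, and precision rests on the number of samples.

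Differences on log2(TPM + 1) were fitted by limma (version 3.58.1, under R 4.3.3), using lmFit and trended eBayes, with two-sided p adjusted by Benjamini-Hochberg over all genes tested, where the pseudocount of 1 understates changes of low genes; the fit was tested on simulated data. The study names DESeq2 on gene counts, which were not used here. Genes that reached 1 TPM in 4 or more samples were tested. Sequence work and figures used Python 3.11.15, scipy 1.17.1 and matplotlib 3.10.9. The numbers shared by samples of the groups were tried only as a block.

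All members may be named; values in every sample are given for the most abundant member of each step in Control, members at an unadjusted p of 0.05 or less and paralogs compared by sequence, and from other lists the most abundant gene and up to 3 genes a direction at that limit. Cpt1a, Mlycd, Hadha, Hadhb and other genes with further values, and the ratios, were chosen after values were seen. The members and lists were chosen with earlier results of these data known. Alternatives were a filter at 5 TPM or none, a pseudocount of 0.1, quantile normalization, median centring, array weights, no moderation, the replicate block, each sample left out, SiglecXII samples 3 and 4 left out together, and repeated symbols summed.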

Additional observations from a re-analysis of the deposited data

Results flagged for a closer look

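Each group of 4 samples was searched for a sample far from the other 3, by the gap to its nearest neighbour over the range of the group on the log2 scale, with the 95% critical value of Dixon's ratio as the limit. Of 102 groups (41 members and 10 step sums in each group) 10 passed, where chance gives about 5.1. Control sample 1 was the low sample in 7 of them, and members and sums that contain them are not independent. It was at 79.3 TPM for Slc16a1 (next 146, ratio 0.868), 75.1 TPM for Slc5a8 (next 114, ratio 0.867), 53.6 TPM for Cpt1a (next 84.5, ratio 0.843) and 131 TPM for Oxct1 (next 174, ratio 0.885). Its sums were low for uptake (154 TPM, next 260, ratio 0.866), activation to acyl-CoA (395 TPM, next 499, ratio 0.900) and ketone body enzymes (240 TPM, next 286, ratio 0.832).

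The other 3 were high samples: Acaa1b in Control sample 2 (0.417 TPM, next 0.211, ratio 0.877), Bdh1 in Control sample 3 (123 TPM, next 111, ratio 0.859) and the sum of electron transfer in SiglecXII sample 2 (464 TPM, next 426, ratio 0.853).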

How the results depend on the processing

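The number of samples, 4 in each group, limits these results, and the labels give depth only as a range, not for each library. In every alternative no member passed the adjusted limit of limma or the limits of unadjusted p and a fold change of 2. The cause of the changes below was not tested, except that fewer samples or genes were used where stated.

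The 2 members at an unadjusted p became 1 with quantile normalization (Acsl3), 1 with no moderation (Eci1, so that Acsl1 and Acsl3 both lost the limit), 4 with median centring (Acsl3, Echs1, Decr2 and Oxct1, with Acsl1 lost at -0.40) and 0 without SiglecXII samples 3 and 4 together; with single samples left out they ranged from 0 to 4. With array weights they were 2 again, but Acsl3 and Acad9, with Acsl1 lost at -0.29. Of all genes, 8.87% passed as reported, 8.45% with quantile normalization, 7.58% with no moderation, 10.8% with median centring and 14.1% with array weights. This share was 2.75% without SiglecXII samples 3 and 4 together and 18% without SiglecXII sample 1, where 4 members passed. Members whose groups did not overlap, 0 as reported, were 2 with quantile normalization (Acsl3 and Decr2), 5 with median centring (Acsl3, Acads, Echs1, Decr2 and Oxct1, all higher in SiglecXII) and 3 without SiglecXII samples 3 and 4 together (Slc16a1, Acsl3 and Bdh1, also higher). With single samples left out they ranged from 0 to 4, where fewer samples make separation easier: without Control sample 1 there were 3 (Acadm, Acad9 and Hadha) and without Control sample 3 there were 4 (Acsl1, Eci1, Acaa1a and Etfa), all lower. Of all genes, 5.11% had groups that did not overlap as reported, 5.2% with quantile normalization and 6.93% with median centring. This share was 12.5% without SiglecXII samples 3 and 4 together, 12.4% without Control sample 1 and 10.4% without Control sample 3. The median difference of members was 0.09 after median centring, and from -0.18 to -0.04 with single samples left out. The 5 genes past the adjusted limit became 3 at a filter of 5 TPM, with no filter and with no moderation, 18 with array weights and 2 without SiglecXII samples 3 and 4 together, and from 2 to 6 with single samples left out. The 1167 genes at an unadjusted p became 699 at 5 TPM, 2043 with no filter, 1851 with array weights and 362 without SiglecXII samples 3 and 4 together, and from 483 to 2365 with single samples left out.

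With the replicate block 0 members and 4 genes passed the adjusted limit, and 2 members and 945 genes the unadjusted one. Same-numbered samples did not deviate together (correlations -0.165, -0.204, 0.103 and -0.00249), and no sample correlated best with its own number, so the numbers give no pairing.

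By the median gene in place of the sum, Control levels by step were 121 TPM for uptake, 42.1 for activation, 42.5 for the shuttle, 64.7 for dehydrogenases, 148 for hydration, 95.3 for thiolases, 51.1 for isomerases, 26.2 for peroxisomal enzymes, 150 for electron transfer and 139 for ketone body enzymes.

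Named members whose difference was small changed sign. With median centring Acsm3 was at 0.14, Acadl 0.12, Hadh 0.17, Acaa2 0.05, Eci1 0.16, Acaa1a 0.05 and Etfb 0.15; with quantile normalization Hadh was at 0.04, Eci1 0.06 and Etfb 0.00; with array weights Slc25a20 and Acadl were at 0.00, Etfb 0.04 and Oxct1 -0.01. Without SiglecXII samples 3 and 4 together Acsm3 was at 0.10, Slc25a20 0.00, Acadl 0.04, Hadh 0.03 and Acaa2 0.00. With single samples left out Slc16a1 ranged from -0.12 to 0.26, Acsm3 from -0.18 to 0.04, Slc25a20 from -0.04 to 0.18, Hadh from -0.08 to 0.00 and Oxct1 from -0.10 to 0.06. In 172 other comparisons of the 12 named members with an alternative the direction and the side of the unadjusted limit held.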
